A study of Homo sapiens with 6 samples.

Results

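HOX genes encode transcription factors that carry a homeodomain, a helical domain that binds DNA. They are described here in HK-2, a human cell line derived from the proximal tubule of the kidney and immortalised in culture. Members were taken by name, as genes of the expression table called HOXA, HOXB, HOXC or HOXD followed by a number. This gave 38 of the 35035 genes in the table: 11 HOXA, 9 HOXB, 9 HOXC and 9 HOXD genes. HOXB1 was not analysed here. RNA was sequenced from 6 libraries, 3 of cells given an empty vector and 3 of cells given a plasmid that overexpresses circAASS, named as a circular product of AASS. The line is labelled wild type, and both groups, so also the controls, had 24 h of hypoxia (1% oxygen) and 12 h of reoxygenation, although the series' design text puts the profiling at 24 h after treatment. No library from cells without hypoxia was used, and the labels do not say whether repeats came from separate cultures, so p-values rest on a spread among libraries that may be technical.

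HOX genes lie in 4 clusters on different chromosomes, HOXA on 7, HOXB on 17, HOXC on 12 and HOXD on 2. Within a cluster they are transcribed from the same strand, and genes at the same place in different clusters are paralogs that share a number, from group 1 at the 3′ end to group 13 at the 5′ end. In the embryo the 3′ genes are switched on earlier and nearer the head than the 5′ genes, and in adult cells the pattern of active HOX genes is kept as a record of position along the body. Retinoic acid and Trithorax-type proteins activate the clusters, Polycomb proteins silence them, and PBX and MEIS proteins bind DNA together with HOX proteins. In the kidney, genes of groups 10 and 11 are known for their part in forming the nephron-producing mesenchyme, and HOXB7 is known for its activity in the ureteric bud and collecting ducts.

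The clusters also hold microRNA genes, and their sequences are shown because they match sites in the 3′ ends of several HOX messages described below. Mature sequences are from RefSeq (GRCh38.p14), 5′ to 3′, with bases 2 to 8, the seed, in capitals; miR-196a-5p and miR-196b-5p share a seed. MIR196A2 lies in the HOXC cluster (chr12:53991762-53991783, plus strand), MIR196A1 in the HOXB cluster (chr17:48632532-48632553, minus strand), MIR196B in the HOXA cluster (chr7:27169528-27169549, minus strand) and MIR10A in the HOXB cluster (chr17:48579904-48579926, minus strand).
miR-196a-5p: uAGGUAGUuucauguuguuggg
miR-196b-5p: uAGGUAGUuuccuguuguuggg
miR-10a-5p: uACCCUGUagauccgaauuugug

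The seed of miR-196 pairs with ACTACCT. These letters stood in the last 1000 bases of 7 of 37 HOX messages (18.9%), namely HOXA5, HOXA7, HOXA9, HOXB6, HOXB7, HOXB13 and HOXC8, and in 940 of 18026 genes in all (5.21%), read from GENCODE 29 on the transcript strand only. The seed of miR-10a pairs with ACAGGGT, which stood in 3 HOX messages (8.11%; HOXB2 and HOXB3 among them) and in 1209 genes (6.71%). The HOXC8 and HOXA9 sites are printed because one of these messages was lower and the other higher with the plasmid; capitals mark the seed match. HOXB8 carries the longest pairing with miR-196a-5p among the HOX messages, at 21 of 22 bases (chr17:48612770-48612791, minus strand), and there capitals mark the paired bases. A match is a description of the letters and not a measured site of action, and paralogs can share such letters by descent.
HOXC8, chr12:54011495-54011516, plus strand: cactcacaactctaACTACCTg
HOXC8, chr12:54012231-54012252, plus strand: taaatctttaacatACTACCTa
HOXA9, chr7:27163254-27163275, minus strand: acaaaaggaaagaaACTACCTt
HOXA9, chr7:27162692-27162713, minus strand: atgtgcagaaggttACTACCTa
HOXB8, minus strand: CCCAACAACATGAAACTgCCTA

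Levels are given as RPKM, reads scaled to exon length and library size, as deposited. Library totals, inferred from the steps between the deposited RPKM values, were 45148425 to 58179563 reads, of which 15660 to 22390 came from HOX genes. Mitochondrial genes took 8.86 to 9.03% of reads in empty-vector libraries and 9.09 to 10.1% in plasmid libraries. With empty vector the epithelial keratins KRT8 and KRT18 stood at 127 and 79.3 RPKM, the cadherin CDH2 at 34.6, VIM at 103 and the epithelial cadherin CDH1 near 0, at 0.0659 RPKM. Of 10 markers of the labelled proximal tubule, which summed to 12.6 to 14.4 RPKM with empty vector and 8.93 to 9.51 with the plasmid, GGT1 stood at 9.25 and SLC5A2 at 3.85 RPKM with empty vector. LRP2 at 0.00664, CUBN at 0.0122, SLC34A1 at 0.0306 and AQP1 at 0.0423 RPKM were at or near 0. The summed level of 6 endothelial markers was 0.0645 to 0.107 RPKM over all libraries, and of the immune markers, which summed to 102 to 106 RPKM with empty vector and 78.6 to 101 with the plasmid, PTPRC was at 0.00661, CD14 at 0.310 and CD68 at 104 RPKM with empty vector. Exons of other genes lie over 85.8% of those of CD68 and 40.7% of those of SLC5A2, and the part of other cell types in the results was not tested. AASS, the host gene, stood at 1.23 ± 0.141 and 0.880 ± 0.0842 RPKM (SD, n = 3 each; adjusted p = 0.0677), which counts linear and other RNA of the gene together and does not check the labels.

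In HK-2 cells HOXB and HOXA were the most transcribed clusters. With empty vector the HOX genes summed to 146 ± 3.09 RPKM (SD, n = 3), of which HOXB gave 46.4%, HOXA 34.6%, HOXC 14.1% and HOXD 4.86%. Sums here and by paralog group leave out HOXA10-HOXA9, a readthrough row of the HOXA cluster at 28.9 ± 1.07 RPKM. HOXA summed to 50.5 and HOXB to 67.8 RPKM, so their order depends on leaving that row out. The order of groups 7, 9 and 10 depends on it too. A mean of at least 1 RPKM over all libraries was reached by 23 of the 38 genes: 10 HOXA, 8 HOXB, 4 HOXC and 1 HOXD. By paralog group, group 7 had the highest summed level, 41.8 ± 2.06 RPKM, followed by group 9 at 32.7 ± 0.506 and group 10 at 15.3 ± 1.42. Groups 12 and 13 summed to 0.0531 ± 0.0181 and 0.675 ± 0.0286 RPKM, so the genes of the 5′ ends, which pattern the end of the trunk and the tips of the limbs, were near 0. In bulk RNA, more cells with a transcript and more transcript per cell cannot be told apart.

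HOXB7, the ureteric bud gene, stood above the other HOX genes taken by name in every library. It had 31.3, 32.7 and 35.7 RPKM with empty vector and 37.0, 39.2 and 31.3 RPKM with the plasmid. The readthrough row HOXA10-HOXA9, not taken by name, was above HOXB7 in circAASS library 3, at 32.7 RPKM. That row shares exons with HOXA9 and HOXA10, so their levels and places in the order are uncertain. HOXB9 at 11.7 ± 0.361 and HOXA9 at 11.2 ± 0.287 RPKM came next and did not differ beyond the spread of their empty-vector libraries, which overlapped. HOXA5 (9.13 ± 0.695), HOXC9 (9.02 ± 0.190) and HOXA7 (8.51 ± 0.230 RPKM) followed. The empty-vector libraries of HOXA5 overlapped those of HOXC9 and of HOXA7, while HOXC9 lay above HOXA7 without overlap. HOXB6 at 6.88 ± 0.253 and HOXA10 at 6.53 ± 0.764 RPKM also overlapped, as did HOXA4 (5.36 ± 0.380), HOXC10 (5.28 ± 0.260) and HOXB2 (5.19 ± 0.0153 RPKM). Below them stood HOXB3 at 4.45, HOXD10 at 3.54 and HOXB4 at 3.31 RPKM. Between 1 and 3 RPKM lay, among others, HOXA3 (2.67), HOXC6 (2.40), HOXC4 (2.06), HOXA6 (2.00), HOXA11 (1.96), HOXB8 (1.84), HOXC8 (1.19) and HOXA2 (1.13).

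HOXD was the least transcribed cluster. HOXD10, a gene of hindlimb motor neurons and of the kidney mesenchyme, had the highest level of the cluster, at 3.13, 3.55 and 3.93 RPKM with empty vector and 3.62, 3.18 and 3.43 RPKM with the plasmid. HOXD11 was next at 0.963 ± 0.0657 RPKM, and HOXD9, HOXD4, HOXD8, HOXD3 and HOXD1 stood between 0.141 and 0.778 RPKM. Of the group 11 genes that act together in nephron formation, HOXA11 was at 1.96 ± 0.191, HOXD11 at 0.963 and HOXC11 at 0.113 ± 0.0369 RPKM. In group 13, HOXC13 had the highest level, 0.363 ± 0.0658 RPKM, against 0.202 for HOXB13, 0.0685 for HOXA13 and 0.0407 for HOXD13. HOXB5, between HOXB4 and HOXB6, was low for its place in the cluster, at 0.977 ± 0.0837 RPKM.

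**Figure D1:**
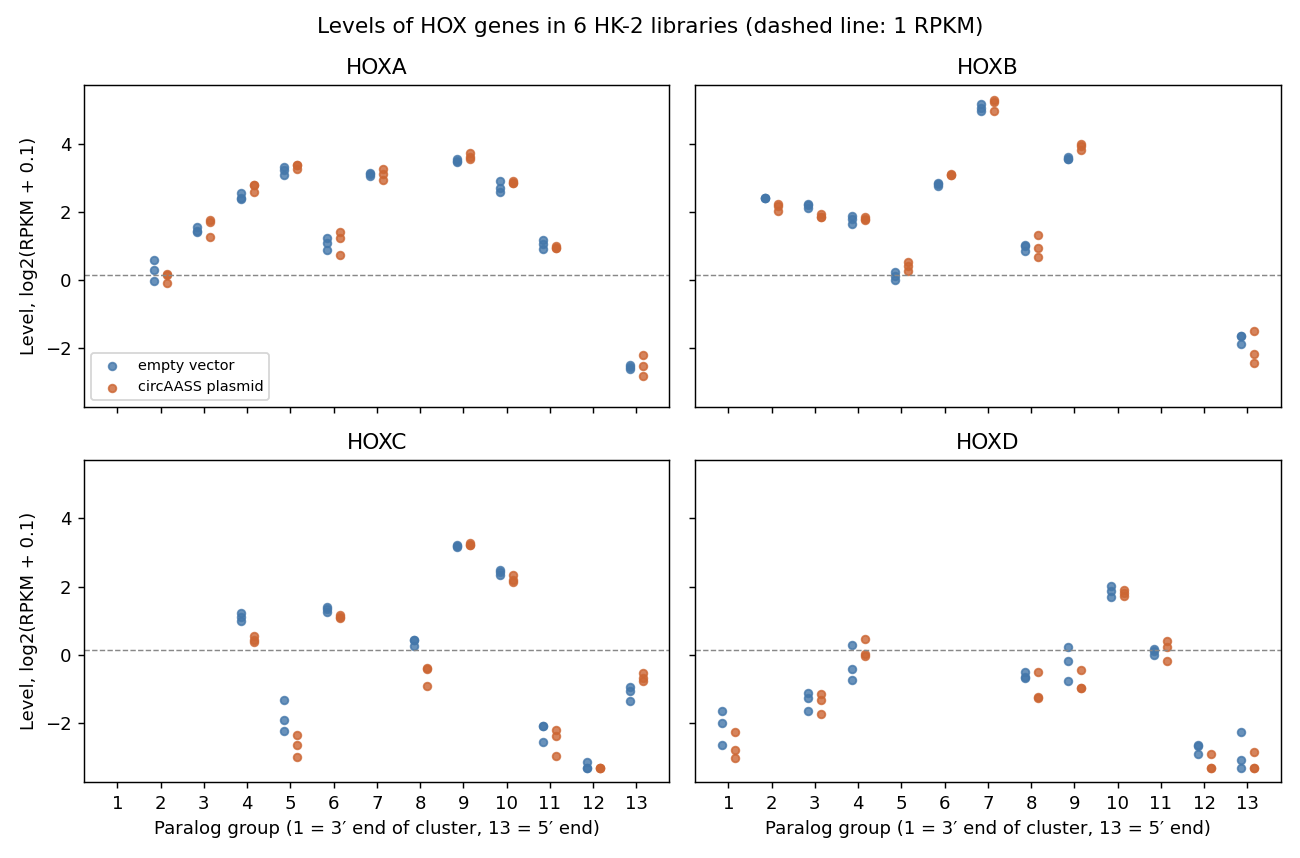
Level of 37 of the 38 HOX genes as log2(RPKM + 0.1) against its paralog group, 1 panel per cluster and 1 point per library, with empty vector in blue and the circAASS plasmid in orange. HOXB7 is the highest point of the 4 panels, and HOXC12, HOXD12 and HOXD13 lie at or near the bottom of the scale.

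The comparison asked which HOX transcripts differed between cells with the plasmid and cells with empty vector. Fold changes are on the log2(RPKM + 0.1) scale after scaling of the libraries, circAASS against vector, and a gene changed when its adjusted p was under 0.05 (limma, Benjamini-Hochberg over 19350 tested genes). Of the 38 HOX genes 34 had enough reads to be tested; HOXC5, HOXC12, HOXD12 and HOXD13 did not. In all 6 rose, 3 fell and 25 did not pass. HOXA4, HOXA9, HOXB6, HOXB9 and HOXC13 were among the rises, and HOXB3, HOXC4 and HOXC8 fell. These 9 of 34 (26.5%) compare with 6242 of all tested genes (32.3%), and the 6 rises (17.6%) and 3 falls (8.82%) with 16.0% and 16.3%. Groups of libraries did not overlap for 14 HOX genes (41.2%), against 47.5% of all genes. The share of HOX genes that changed was thus near that of the table as a whole.

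The median log2 fold change of the 34 genes was 0.09, against -0.01 over all tested genes, and 21 were above 0. Scaling factors lay at 1.018 to 1.036 in empty-vector libraries and at 0.958 to 0.996 in plasmid libraries, so a gene at the same RPKM in both groups has a fitted value slightly above 0. With scaling by library size alone the median was 0.02 for HOX genes and -0.08 for all genes, and 4 HOX genes rose and 4 fell: HOXA9 (adjusted p = 0.124) and HOXC13 (0.0794) no longer passed and HOXB2 did (0.0274). Over all genes this scaling gave 2159 higher and 4023 lower in place of 3090 and 3152.

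**Figure D2:**
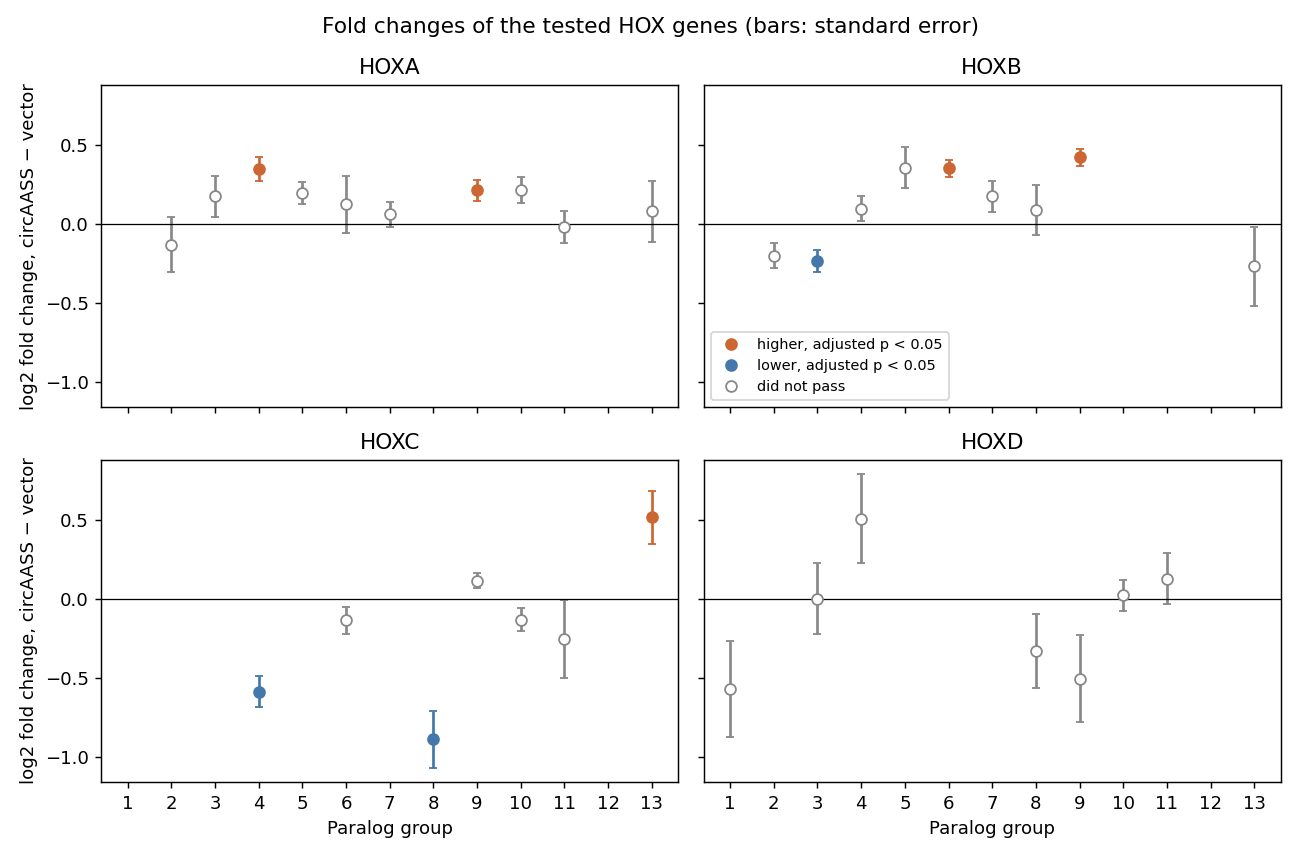
Log2 fold change with its standard error (circAASS against vector) for 33 of the 34 tested HOX genes, by cluster and paralog group; filled points passed the test and open points did not. The rises of HOXA4, HOXB6 and HOXB9 and the falls of HOXC4 and HOXC8 stand away from 0, while no HOXD gene passed.

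In the HOXA cluster none of the 11 tested genes fell, while 16.3% of all tested genes did. HOXA4 (chr7:27128507-27130799, minus strand), a gene of the neck and upper trunk, had 5.22, 5.07 and 5.79 RPKM against 5.90, 6.86 and 6.84. The groups did not overlap, with a log2 fold change of 0.35 (SE 0.08, adjusted p = 0.0126). Other annotated genes cover 47.3% of the exon bases of HOXA4, so its reads are uncertain to that extent.

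HOXA9 (chr7:27162435-27175180, minus strand), a regulator of blood progenitors, had 11.5, 11.0 and 11.1 RPKM with empty vector and 12.1, 13.3 and 11.7 with the plasmid. The groups lay close together without overlap, and the log2 fold change of 0.21 (SE 0.07) passed narrowly (adjusted p = 0.0438). It passed without circAASS library 3 but not when any of the other 5 libraries was left out (adjusted p up to 0.112). The table has a row for HOXA10-HOXA9, a readthrough transcript that shares its exons with both genes, which rose from 28.9 ± 1.07 to 33.8 ± 2.04 RPKM (log2 fold change 0.30, adjusted p = 0.00836). How reads in shared exons were assigned is not given in the sources used here, so HOXA9 and HOXA10 are uncertain. HOXA10 itself, a gene of the uterus and of the kidney mesenchyme, went from 6.53 ± 0.764 to 7.19 ± 0.150 RPKM and did not pass (adjusted p = 0.0793; 0.0287 without empty-vector library 3).

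Other HOXA genes did not pass. HOXA5 had 9.17, 9.81 and 8.42 RPKM against 9.44, 10.2 and 10.2, which overlapped (log2 fold change 0.20, adjusted p = 0.0687; 0.0497 without empty-vector library 2). HOXA3 (2.67 to 2.91 RPKM), HOXA6 (2.00 to 2.12) and HOXA13 (0.0685 to 0.0767) had log2 fold changes of 0.18, 0.12 and 0.08; HOXA3 passed without circAASS library 1 (adjusted p = 0.0420). HOXA7, of which the antisense HOXA-AS3 covers 62.5%, had 8.51 and 8.48 RPKM and a fold change of 0.06 that turned to -0.0088 with scaling by library size. HOXA2 (1.13 to 0.959 RPKM) and HOXA11 (1.96 to 1.83 RPKM) had values of -0.13 and -0.02. The summed HOXA level was 50.6, 50.8 and 49.9 RPKM with empty vector and 51.6, 58.6 and 55.8 with the plasmid, with no overlap.

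The promoters of HOXA4 and HOXC4 are shown as an example of paralogs that moved in opposite directions. Each window runs from 250 bases before to 50 bases after the RefSeq start (GRCh38.p14), in the direction of transcription; capitals mark matches to CCAAT (on either strand, so also as ATTGG) or to CACGTG. The HOXA4 window (chr7:27130708-27131007, minus strand) holds 1 CCAAT and 1 CACGTG and has 63.3% G and C. The HOXC4 window (chr12:54016638-54016937, plus strand), which RefSeq also gives for HOXC5, holds 2 CCAAT and no CACGTG and has 51.7% G and C. CCAAT stood in 17 of 26 HOX windows and in 34.6% of all 35116 windows, CACGTG in 9 HOX windows and 7.26% of all, TATAAA in 5 and 11.5%, and TGATNNAT, letters of a HOX and PBX site, in 2 and 7.40%. The 26 windows came from 19 of the 38 HOX genes, so some genes count with more than 1 window. The window shared by HOXC4 and HOXC5 was counted for each of them.
HOXA4: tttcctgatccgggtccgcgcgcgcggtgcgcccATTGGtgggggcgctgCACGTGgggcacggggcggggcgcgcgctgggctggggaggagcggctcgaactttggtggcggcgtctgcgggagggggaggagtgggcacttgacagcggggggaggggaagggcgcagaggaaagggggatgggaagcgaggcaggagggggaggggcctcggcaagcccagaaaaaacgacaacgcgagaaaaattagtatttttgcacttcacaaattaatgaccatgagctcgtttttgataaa
HOXC4: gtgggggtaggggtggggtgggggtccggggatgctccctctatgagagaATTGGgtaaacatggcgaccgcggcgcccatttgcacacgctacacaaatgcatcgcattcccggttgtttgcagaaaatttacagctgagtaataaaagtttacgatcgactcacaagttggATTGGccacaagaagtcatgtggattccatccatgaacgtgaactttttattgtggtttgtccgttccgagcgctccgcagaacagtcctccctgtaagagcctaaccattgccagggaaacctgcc

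In the HOXB cluster 2 of 9 tested genes rose and 1 fell (33.3%, against 32.3% of all tested genes). The median log2 fold change was 0.10. HOXB9 (chr17:48621159-48626356, minus strand), a gene of the thoracic skeleton and mammary gland, had the smallest p of the HOX genes. It had 11.5, 12.1 and 11.5 RPKM with empty vector and 14.1, 15.2 and 15.7 with the plasmid. The groups were well apart, with a log2 fold change of 0.42 (SE 0.05, adjusted p = 0.00155), and no other annotated gene shares its exons. HOXB6 (chr17:48595751-48604992, minus strand), known from blood progenitors, had 6.59, 7.01 and 7.05 RPKM against 8.32, 8.51 and 8.32. It was higher in all plasmid libraries, by 0.35 on the log2 scale (SE 0.05, adjusted p = 0.00310), with 32.9% of its exon bases shared with HOXB3 or the antisense HOXB-AS3.

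HOXB3 (chr17:48548870-48604912, minus strand), a hindbrain and pharyngeal gene, moved the other way. It had 4.25, 4.49 and 4.62 RPKM with empty vector and 3.76, 3.48 and 3.52 with the plasmid. The groups did not overlap, and the log2 fold change of -0.23 (SE 0.07) passed narrowly (adjusted p = 0.0396). It passed without circAASS library 1 but not when any of the other 5 libraries was left out (adjusted p up to 0.122). HOXB2, its 3′ neighbour, stood at 5.21, 5.18 and 5.18 RPKM with empty vector and at 4.36, 4.58 and 3.93 with the plasmid. The libraries did not overlap, yet HOXB2 missed the threshold (log2 fold change -0.20, SE 0.08, adjusted p = 0.0911).

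The other HOXB genes did not pass. HOXB5 had 1.06, 0.970 and 0.896 RPKM against 1.23, 1.34 and 1.09, without overlap (log2 fold change 0.36, adjusted p = 0.0709). HOXB7, the most abundant, had a log2 fold change of 0.18 (SE 0.10, adjusted p = 0.207), and its plasmid library 3 equalled the lowest empty-vector library at 31.3 RPKM; without that library it passed (adjusted p = 0.0218). HOXB4 (3.31 to 3.37 RPKM), HOXB8 (1.84 to 1.90) and HOXB13 (0.202 to 0.153) had log2 fold changes of 0.10, 0.09 and -0.27. From HOXB4 to HOXB9 all 6 fitted values were above 0, and those of HOXB2 and HOXB3 at the 3′ end were below 0. The summed HOXB level was 67.8 ± 2.70 RPKM with empty vector and 73.7 ± 4.30 with the plasmid.

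In the HOXC cluster 1 of 7 tested genes rose and 2 fell (42.9%, against 32.3% of all tested genes). The median log2 fold change was -0.14. HOXC8 (chr12:54009106-54012362, plus strand), a gene of the lower neck and thorax that also marks motor neurons of the forelimb, fell most. It had 1.08, 1.25 and 1.24 RPKM with empty vector and 0.640, 0.655 and 0.425 with the plasmid, from 92 to 123 and 38 to 72 reads. The groups were far apart, and the log2 fold change was -0.89 (SE 0.18, adjusted p = 0.00895). No other annotated gene shares its exons.

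HOXC4 (chr12:54016931-54056030, plus strand), the 3′-most gene of its cluster, had 1.89, 2.23 and 2.04 RPKM with empty vector and 1.20, 1.24 and 1.36 with the plasmid. Every plasmid library was below every empty-vector library (log2 fold change -0.59, SE 0.10, adjusted p = 0.00429). HOXC4, HOXC5 and HOXC6 share exons over long distances, which covers 17.8% of the exon bases of HOXC4. HOXC5, too low to be tested, stood at 0.110, 0.163 and 0.296 RPKM against 0.0577, 0.0952 and 0.0234. HOXC6 went from 2.40 ± 0.124 to 2.07 ± 0.0631 RPKM without overlap but did not pass (log2 fold change -0.14, adjusted p = 0.252).

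HOXC13 (chr12:53938765-53946544, plus strand), which controls hair and nail keratins, rose at the 5′ end of the same cluster. It had 0.420, 0.291 and 0.378 RPKM with empty vector and 0.482, 0.525 and 0.592 with the plasmid, from 36 to 74 reads. The groups did not overlap, and the log2 fold change of 0.52 (SE 0.17) was at the edge of the threshold (adjusted p = 0.0498). It passed without empty-vector library 1 but not when any of the other 5 libraries was left out (adjusted p up to 0.134).

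The remaining HOXC genes did not pass. HOXC9, the most abundant of the cluster, had 9.08, 9.18 and 8.81 RPKM against 9.19, 9.20 and 9.51 (log2 fold change 0.12, adjusted p = 0.112). HOXC10 went from 5.28 ± 0.260 to 4.58 ± 0.329 RPKM, with a log2 fold change of -0.13. HOXC11 (0.113 to 0.0773 RPKM) had a value of -0.25, and HOXC12 had 2 reads in 1 library and 0 in the other 5. The summed HOXC level was 20.2, 21.0 and 20.6 RPKM with empty vector and 18.1, 18.8 and 18.5 with the plasmid. HOXC was thus lower in all plasmid libraries, and its share of the HOX sum went from 14.1 to 12.0%.

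None of the 7 tested HOXD genes passed with limma at an adjusted p under 0.05, and their median log2 fold change was 0.00. None of the 7 had groups without overlap, against 47.5% of all tested genes, of which 32.3% passed. HOXD4 passed without empty-vector library 2 (0.81, adjusted p = 0.0392) and HOXD8 without circAASS library 2 (-0.58, adjusted p = 0.0427). HOXD4, with 0.499, 1.12 and 0.638 RPKM against 1.28, 0.904 and 0.879, had a value of 0.51 (SE 0.28), and another transcript covers 80.5% of its exon bases. HOXD9 (0.778 ± 0.292 to 0.479 ± 0.132 RPKM), HOXD8 (0.547 ± 0.0447 to 0.411 ± 0.165) and HOXD1 (0.141 to 0.0560) had values of -0.50, -0.33 and -0.57. HOXD3 (0.295 to 0.282 RPKM), HOXD10 (3.54 to 3.41) and HOXD11 (0.963 to 1.02) had values of 0.00, 0.02 and 0.13; that of HOXD3 was -0.054 and that of HOXD10 -0.047 with scaling by library size. HOXD12 and HOXD13 had at most 4 and 12 reads in a library. With 2 to 92 reads per library for HOXD1, HOXD3, HOXD4, HOXD8 and HOXD9, the spread between libraries was wide.

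**Figure D3:**
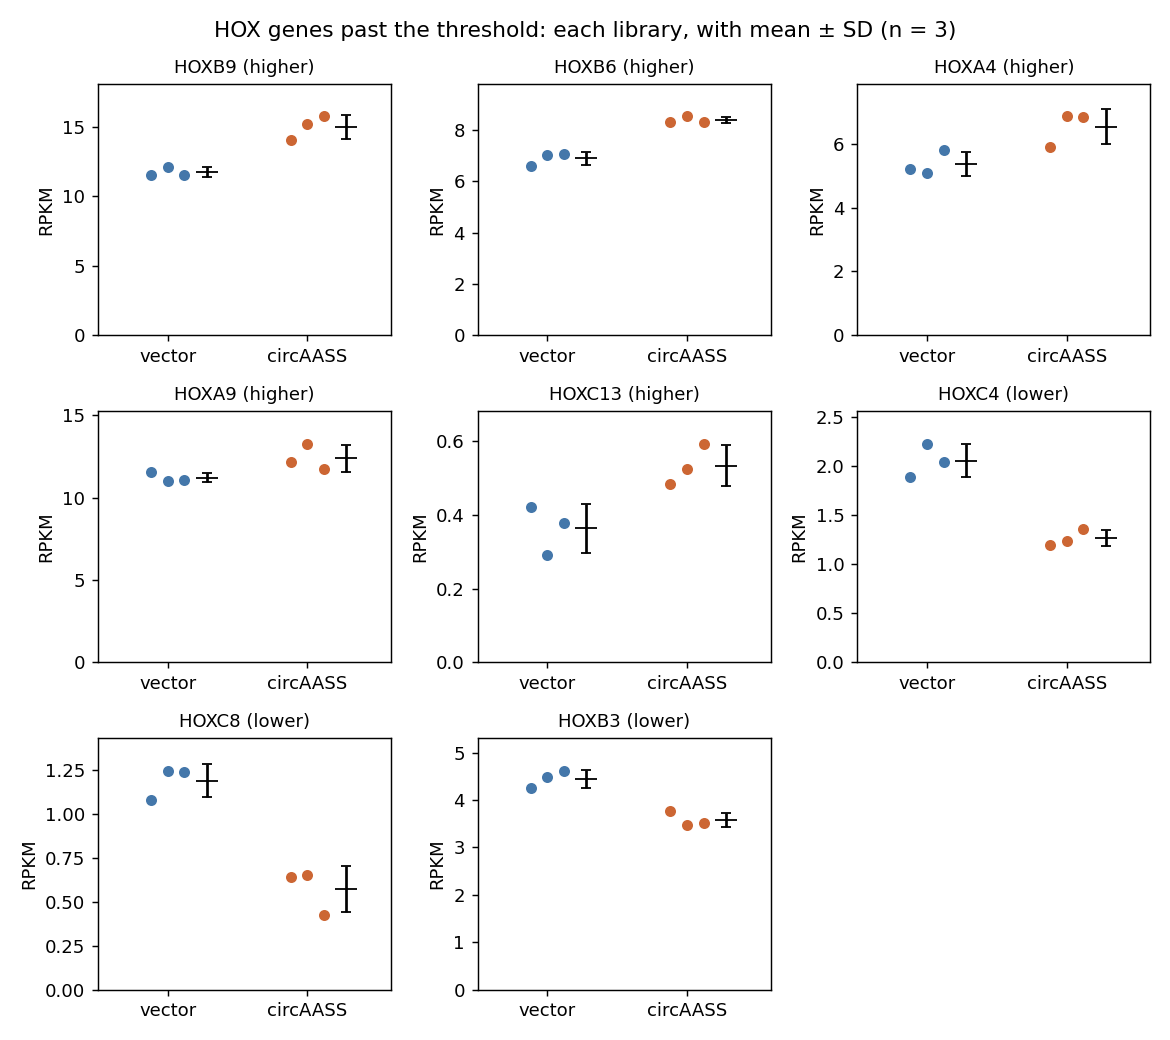
RPKM of 8 HOX genes that passed the test, 1 point per library, with mean and SD beside each group of 3 and axes that start at 0. HOXC8 has the widest gap relative to its level, while the groups of HOXA9 lie close together.

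Beside the coding genes the clusters make long non-coding RNAs, most of them from the opposite strand. Of 15 tested, 2 rose and 4 fell (40%, against 32.3% of all tested genes), with a median log2 fold change of -0.21. In the HOXC cluster, next to HOXC8 and HOXC9, HOXC-AS2 fell from 1.66 ± 0.0642 to 1.01 ± 0.134 RPKM (log2 fold change -0.61, adjusted p = 0.00855). HOXC-AS1 fell from 0.690 ± 0.0995 to 0.294 ± 0.124 RPKM (-0.99, adjusted p = 0.0218; up to 0.0664 when 1 library was left out). HOTAIR, a HOXC RNA studied for silencing through Polycomb, went from 0.236 ± 0.0666 to 0.176 ± 0.0170 RPKM and did not pass (adjusted p = 0.439).

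In the HOXB cluster the antisense RNAs went different ways. HOXB-AS1, between HOXB2 and HOXB3, fell from 9.60 ± 0.307 to 7.65 ± 0.568 RPKM (log2 fold change -0.25, adjusted p = 0.0377), as HOXB3 did. HOXB-AS3, whose exons overlap those of HOXB-AS1, HOXB3, HOXB5 and HOXB6, rose from 7.28 ± 0.319 to 8.14 ± 0.347 RPKM (0.23, adjusted p = 0.0307). Of these overlapped genes HOXB6 rose, HOXB3 and HOXB-AS1 fell and HOXB5 did not pass. The labels name a stranded kit, but whether the counting used strand is not given in the sources used here. Reads of these pairs can therefore be mixed where exons overlap, over 29.6% of HOXB-AS1 and 30.1% of HOXB-AS3. Both calls were lost when some libraries were left out (adjusted p up to 0.106 and 0.0936).

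In the HOXA cluster HOXA10-AS fell from 15.1 ± 0.492 to 12.4 ± 0.565 RPKM (log2 fold change -0.21, adjusted p = 0.0377; up to 0.112 when 1 library was left out), while HOXA9, which it overlaps, rose. Exons of HOXA9, HOXA10 and MIR196B lie over 62.3% of those of HOXA10-AS, so reads can be mixed there too. HOTAIRM1, known from myeloid cells, had 9.06 ± 0.541 and 8.49 ± 0.535 RPKM (adjusted p = 0.856). HAGLR, antisense to HOXD1 and HOXD3, rose from 0.683 ± 0.0694 to 1.01 ± 0.0329 RPKM (0.57, adjusted p = 0.0114). The row of the MIR196A1 hairpin, inside the span of HOXB7 and chosen after its values were seen, fell from 16.6 ± 2.56 to 8.62 ± 3.26 RPKM (-0.93, adjusted p = 0.0358; up to 0.101 when 1 library was left out). It rests on 60, 60 and 51 against 17, 38 and 38 reads over 70 bases and does not measure the mature microRNA, whose length the library does not keep. The MIR196A2 hairpin had at most 1 read in a library.

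**Figure D4:**
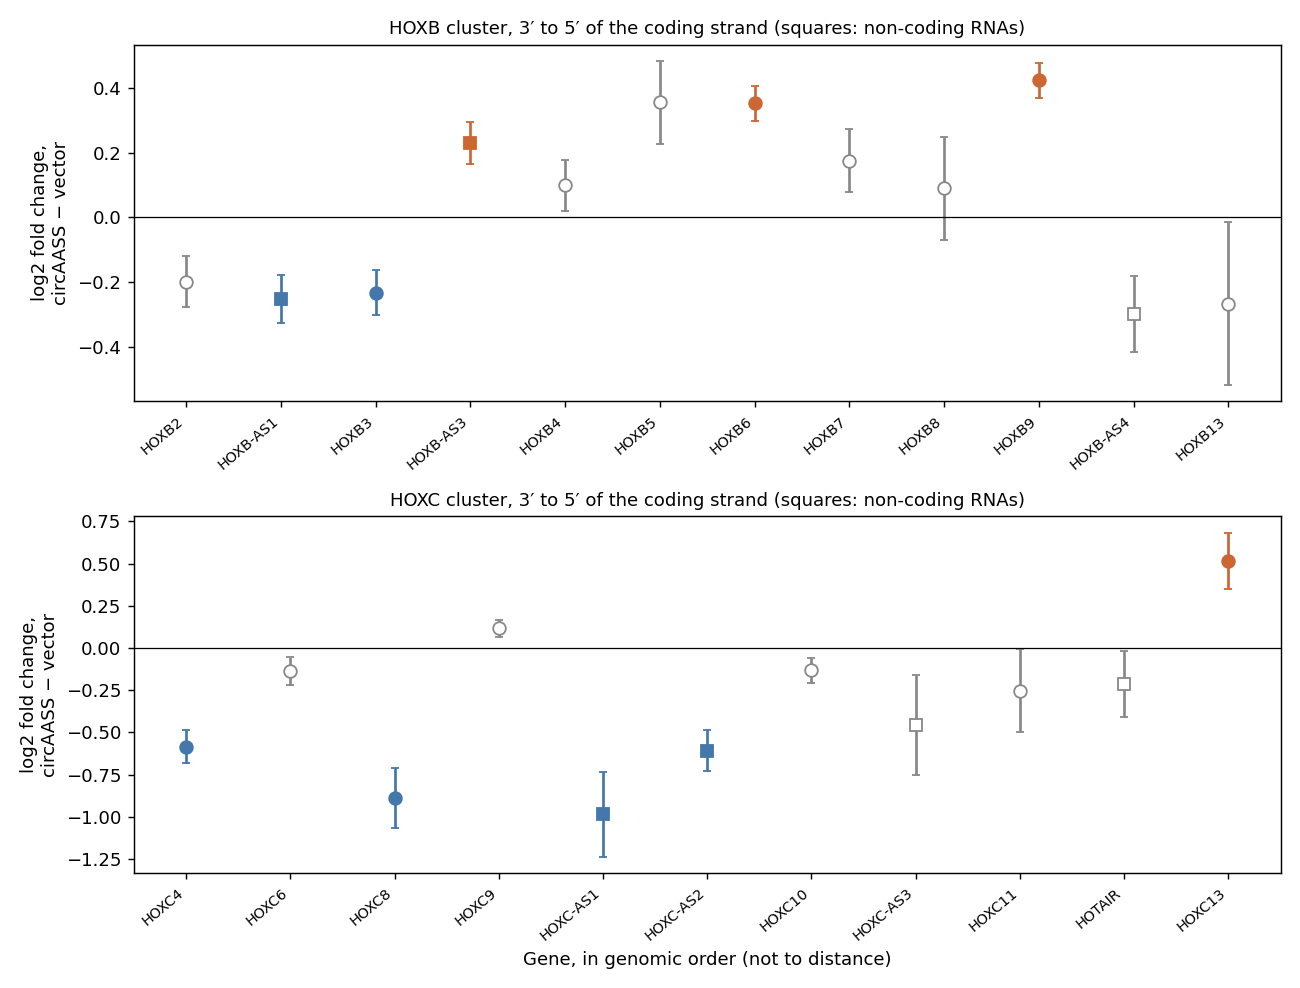
Log2 fold change with its standard error for tested coding genes (circles) and non-coding RNAs (squares) of the HOXB and HOXC clusters, in genomic order from the 3′ to the 5′ end and not to distance; filled symbols passed the test. HOXB2, HOXB-AS1 and HOXB3 lie below 0 and HOXB-AS3 to HOXB9 above 0, while HOXC8, HOXC-AS1 and HOXC-AS2 have the lowest values of HOXC, with HOXC9 above 0 among them.

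PBX, MEIS and PKNOX proteins, the TALE homeodomain cofactors, bind DNA beside HOX proteins. Of 8 tested, 1 rose and 1 fell (25%, against 32.3% of all tested genes), with a median log2 fold change of 0.00. PBX3 rose from 7.97 ± 0.0898 to 11.1 ± 0.505 RPKM (0.54, SE 0.05, adjusted p = 0.000607). MEIS3 fell from 6.05 ± 0.130 to 4.91 ± 0.259 RPKM (-0.23, adjusted p = 0.0335; up to 0.104 when 1 library was left out). PBX4 (4.81 to 5.75 RPKM, adjusted p = 0.0567; 0.0284 without circAASS library 3) and MEIS2 (1.18 to 1.03 RPKM, adjusted p = 0.444) did not pass.

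Polycomb proteins keep HOX genes silent. Of the 11 tested genes of Polycomb repressive complex 2, which methylates histone H3 at K27, 6 rose and 1 fell (63.6% in all, median 0.16). Over all tested genes 32.3% changed. Groups of libraries did not overlap for 4 of the 11 (36.4%), against 47.5% of all tested genes. JARID2, which helps to recruit the complex, rose from 6.27 ± 0.380 to 8.53 ± 0.117 RPKM (0.51, adjusted p = 0.00161). SUZ12, a core subunit, rose from 12.1 ± 0.566 to 15.4 ± 0.192 RPKM (0.42, adjusted p = 0.00177), and MTF2 from 11.8 ± 0.406 to 13.8 ± 0.436 RPKM (0.30, adjusted p = 0.00454). EZH1, the lesser methyltransferase, fell from 4.37 ± 0.299 to 3.35 ± 0.0569 RPKM (-0.30, adjusted p = 0.0164; up to 0.0675 when 1 library was left out). EED, RBBP4 and PHF1 were the other rises, with calls lost when some libraries were left out (adjusted p up to 0.142, 0.0972 and 0.0694). EZH2 stood at 40.2 ± 0.858 and 39.9 ± 1.18 RPKM and did not pass (adjusted p = 0.325). With scaling by library size 4 genes of the complex rose and 1 fell.

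Of 19 tested genes of Polycomb repressive complex 1, which ubiquitinates histone H2A and compacts chromatin, 4 rose and 3 fell (36.8%, median 0.04). The share over all tested genes was 32.3%. RYBP rose from 2.77 ± 0.261 to 4.51 ± 0.193 RPKM (0.76, adjusted p = 0.00136). PCGF5 (3.38 to 3.97 RPKM) and the E3 ligase RNF2 (3.99 to 4.58) also rose, the latter with its call lost when any of 5 libraries was left out (adjusted p up to 0.0806). CBX7, a reader of methylated H3, fell from 0.968 ± 0.160 to 0.334 ± 0.0759 RPKM (-1.24, adjusted p = 0.00311). RING1 fell from 14.8 ± 0.459 to 11.4 ± 1.01 RPKM and CBX8 from 7.03 ± 0.270 to 5.42 ± 0.406 RPKM, but CBX8 did not pass when empty-vector library 1 or 3 was dropped (adjusted p as high as 0.0601).

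Of 16 tested Trithorax-type and other activators of HOX genes, 4 rose and 1 fell (31.2%, against 32.3% of all tested genes, median 0.13). With scaling by library size 1 rose and 2 fell. MLLT3, of the complexes that support transcript elongation, rose from 2.96 ± 0.0319 to 3.57 ± 0.223 RPKM (0.33, adjusted p = 0.0111). MLLT1 (7.71 to 8.78 RPKM), the KMT2 complex subunit RBBP5 (12.2 to 13.8) and the H3K79 methyltransferase DOT1L (5.29 to 6.03) rose by 0.24 to 0.26. ASH2L, another KMT2 complex subunit, fell from 4.55 ± 0.189 to 3.59 ± 0.107 RPKM (-0.26, adjusted p = 0.0160). Calls of ASH2L, MLLT1, RBBP5 and DOT1L were lost when some libraries were left out (adjusted p up to 0.0633, 0.0572, 0.0699 and 0.115).

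Of 14 tested genes of retinoic acid supply and sensing, 3 rose and 2 fell (35.7%, against 32.3% of all tested genes, median 0.00). CRABP2, which carries retinoic acid to its receptors, rose from 59.5 ± 4.49 to 77.6 ± 3.14 RPKM (0.46, adjusted p = 0.00254). RDH10, which makes retinaldehyde, rose from 3.34 ± 0.278 to 4.46 ± 0.284 RPKM (0.48, adjusted p = 0.00516), and the receptor RARG from 2.46 ± 0.122 RPKM by 0.40 on the log2 scale (adjusted p = 0.0150; 0.0502 without empty-vector library 3). DHRS3, which reduces retinaldehyde, fell from 10.2 ± 1.00 to 7.11 ± 0.107 RPKM (-0.44, adjusted p = 0.00445). STRA6, a retinol transporter, fell from 0.649 ± 0.101 to 0.375 ± 0.0381 RPKM (-0.59, adjusted p = 0.0286; up to 0.0902 when 1 library was left out).

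Genes that flank the clusters gave a comparison of the same chromosome regions. Of 12 tested, 1 rose and 7 fell (66.7%, median -0.27), against 9 of 34 for the HOX genes and 32.3% of all tested genes. Falls alone made up 16.3% of all tested genes. SKAP1, beyond the 3′ end of HOXB, fell from 10.1 ± 0.416 to 6.09 ± 1.09 RPKM (-0.67, adjusted p = 0.00787). HIBADH, beside HOXA, fell from 4.57 ± 0.240 to 3.32 ± 0.196 RPKM (-0.38, adjusted p = 0.0117), and SMUG1, beside HOXC, from 0.968 ± 0.0635 to 0.588 ± 0.0521 RPKM (-0.57, adjusted p = 0.0132). CALCOCO2 rose from 22.0 ± 1.08 to 25.7 ± 1.42 RPKM (0.29, adjusted p = 0.0159). With empty-vector library 2 left out, SMUG1 and CALCOCO2 did not pass (adjusted p = 0.0531 and 0.0558). Falls of CALCOCO1, SNX10 and TTLL6 were also lost when some libraries were left out (adjusted p up to 0.0904, 0.0972 and 0.0578). The difference between flanking and HOX genes was not tested.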

How the data were processed

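Groups came from the sample titles, and members and gene lists were chosen with earlier results of these data known. The authors deposited RPKM, 1 column per library; the submitters' processing notes name Trimmomatic 0.36, featureCounts, Subread 1.5.1, edgeR 3.12.1 and GRCh38. The sources used here give no aligner, annotation or use of strand in counting. Library totals were inferred from the RPKM, and whole reads were recovered with GENCODE 29 exon lengths (22385 of 24697 genes, 90.6%, whole within 0.02 reads) or, for 12571 genes, a length found from the values; 78.6% of values of 1 to 20 reads were even, so mates were mostly counted separately and counting error is larger than for single reads. Within groups, libraries differed beyond counting noise (chi-square per degree of freedom 5.52 to 20.3), so none was a copy. RPKM were divided by trimmed-mean (TMM) factors (30% of ratios and 5% of levels trimmed) of the recovered reads. Then limma 3.58.1 (R 4.3.3; trend, robust) tested log2(RPKM + 0.1), two-sided, for genes with 15 reads in all and, at the median library size, 10 or more in 3 libraries; fold changes understate those of low genes. Means ± SD are of the deposited RPKM. The results of a few genes are not reported here. The other HOX genes are reported, and of each list up to 4 tested members with the smallest p and all called members where a direction has 5 or fewer; others were chosen after their values were seen. 28 genes with names turned into dates were left out. Exon overlaps and gene positions are from GENCODE 29. Alternatives were other pseudocounts, filters and scaling, a replicate block and leaving out each library. The fit was tested on simulated data. Figures were drawn with matplotlib 3.10.9.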

Additional observations from a re-analysis of the deposited data

How the results depend on the processing

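Of 427 values of the tested HOX genes under alternative settings, 378 kept direction and side of the threshold, 26 lost the call, 7 gained it and 16 turned; of 829 values of other named genes these were 695, 120, 6 and 8. HOX genes higher and lower numbered 6 and 3 with a pseudocount of 1, 5 and 3 with 0.01, 4 and 2 without the filter, 5 and 2 with a mean of at least 1 RPKM, and 5 and 2 without trend and robust estimation; leaving out 1 library gave 4 to 6 and 2 to 3. Over all genes, leaving out 1 library gave 2189 to 2790 higher and 2013 to 2905 lower, the fewest lower without empty-vector library 2. Over the other lists it gave 19 to 25 higher and 12 to 25 lower, in place of 29 and 26, and without the filter 15 were lower. With the replicate block 4 HOX genes were higher and 2 lower, without HOXA9, HOXB3 and HOXC13. Same-numbered libraries did not deviate together (correlations of -0.005, -0.024 and 0.023). These correlations show no shared deviation but cannot tell whether same-numbered samples were prepared together. The planned edgeR and DESeq2 fits are not reported, since the deposited values are RPKM and not counts. With trimmed-mean factors the summed level was 49.2 RPKM for HOXA with empty vector, and 20.1 and 18.9 RPKM for HOXC with empty vector and with the plasmid.

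Log2 fold changes that turned were those of HOXA7 (-0.0088), HOXD3 (-0.054) and HOXD10 (-0.047) with library size alone, and of HOXD3 (-0.0030) with a pseudocount of 0.01. Over the fits without 1 library the log2 fold change ran from -0.28 to 0.038 for HOXA2, -0.018 to 0.32 for HOXA6, -0.011 to 0.13 for HOXA7, -0.092 to 0.056 for HOXA11, -0.073 to 0.24 for HOXA13, -0.080 to 0.23 for HOXB8, -0.14 to 0.19 for HOXD3, -0.051 to 0.095 for HOXD10, -0.083 to 0.027 for HOTAIRM1, -0.11 to 0.034 for COL1A1, -0.19 to 0.063 for MIR10B and -0.12 to 0.037 for VWF. None of these 12 passed the test with all libraries, and the cause was not tested. Depth limits the HOX genes of the 5′ ends and of HOXD, several with under 100 reads per library.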

Other observations

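Other genes of kidney development also moved in both directions. Of 11 tested, 4 rose and 3 fell (63.6%, against 32.3% of all tested genes), with a median log2 fold change of 0.27. PAX8, a factor of the nephron lineage, rose from 25.0 ± 1.22 to 42.3 ± 2.64 RPKM (0.83, SE 0.06, limma adjusted p = 0.000234). GDNF, a ligand of the ureteric bud that group 11 HOX proteins are known to regulate in the embryo, rose from 0.789 ± 0.145 to 1.68 ± 0.247 RPKM (1.07, adjusted p = 0.00292). Its receptor RET fell from 0.102 ± 0.0267 to 0.0281 ± 0.0171 RPKM, and LHX1 from 13.1 ± 0.387 to 10.0 ± 0.447 RPKM (-0.31, adjusted p = 0.00790). SALL1 (0.727 to 0.469 RPKM) fell; the calls of SALL1 and RET were lost when some libraries were left out (adjusted p up to 0.0952 and 0.0802).

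Of 9 tested epithelial markers 4 rose and 2 fell (66.7% in all, against 32.3% of all tested genes). CDH6, a tubular cadherin, dropped from 13.5 ± 0.269 to 4.89 ± 0.256 RPKM (-1.37), while CDH2 rose from 34.6 ± 0.990 to 44.6 ± 1.85 RPKM (0.44). The keratins KRT18 (0.50), KRT7 (0.48) and KRT8 (0.30) rose too (limma adjusted p = 0.00153, 0.00605 and 0.00747). EPCAM fell (-0.21, adjusted p = 0.0284, up to 0.106 when 1 library was left out). VIM (0.06, adjusted p = 0.584), KRT19 and CDH1 did not pass. The tubule genes SLC5A2 and GGT1 fell from 3.85 ± 0.389 to 1.87 ± 0.177 and from 9.25 ± 0.548 to 7.11 ± 0.289 RPKM. Other annotated genes cover 40.7% of the exon bases of SLC5A2. RN7SK, an RNA without a poly(A) tail, rose from 38.6 ± 5.48 to 127 ± 67.7 RPKM (1.63, adjusted p = 0.0181; up to 0.0560 when 1 library was left out); its part in the HOX results was not tested.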
